A study of Mus musculus with 24 samples.

Results

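Of the 31863 genes tested in NeuN- hippocampal nuclei, 38 genes (0.119%) had a level in the double knockout that departed from the sum of the effects of the 2 single knockouts, and 22 of these 38 lay in 1 stretch of chromosome 4 that holds near-identical copies of Ccl21 and its neighbours. The comparison set the double knockout (DKO) against the value it would have if loss of OGG1 and loss of MUTYH acted independently and added up, gene by gene and list by list. In formula, the departure was the log2 difference between DKO and Ogg1-/- minus the log2 difference between Mutyh-/- and WT, so that 0 stands for a DKO level equal to Mutyh-/- times Ogg1-/- divided by WT. All 12 NeuN- libraries of the series (of 24 in all) entered the fit, with 3 for each of 4 genotypes.

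The animals were male mice of the C57BL/6N background, 6 months old and without treatment, that carried both genes (WT), lacked Mutyh (Mutyh-/-), lacked Ogg1 (Ogg1-/-) or lacked both (DKO, from crosses of the single-knockout lines). By the study's description all 4 groups shared the background, the age and the housing, and no group received an agent. Hippocampal nuclei were stained for the neuronal protein NeuN, sorted by flow cytometry, and their nuclear RNA was sequenced. The nuclei were pooled from several animals of a genotype, and the methods speak of independent biological replicates for the study in general without saying how the 3 libraries of a genotype were drawn from the pools. The p-values measure only the spread between these libraries, and part of it may be technical.

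OGG1 and MUTYH are DNA glycosylases, enzymes that start base excision repair by cutting a wrong base from its sugar. OGG1 removes 8-oxoguanine, an oxidized guanine, where it stands opposite cytosine, and MUTYH removes an adenine that has been placed opposite 8-oxoguanine. Both thus act on the same lesion, before and after replication, and the question put to the DKO is whether the loss of both does something to transcription that the separate losses do not.

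The NeuN- libraries held 56982300 to 92409900 counts each (to 6 digits) over 55254 genes. They were labelled as glia, and in WT the markers of oligodendrocytes (14 of 14), oligodendrocyte precursors (11 of 11), astrocytes (14 of 14) and microglia (14 of 14) had higher mean CPM (counts per 1000000 counts) than in NeuN+ nuclei, while 0 of 12 neuronal markers did. Pericyte and smooth muscle markers (10 of 10), meningeal markers (8 of 10) and choroid plexus markers (9 of 10) were also higher, so the nuclei are called NeuN- here and not glia. In bulk nuclei, fewer cells of a type and less RNA per cell cannot be told apart. Choroid plexus markers summed to 51.3 to 86.2 CPM in WT, 31.6 to 36.8 in Mutyh-/-, 20.2 to 133 for Ogg1-/- and 17.9 to 293 for DKO, with the highest value in DKO replicate 3.

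The deleted genes were looked at first. Ogg1 RNA did not fall in the mice labelled Ogg1-/-: its mean was 6.71 CPM in WT, 6.70 in Mutyh-/-, 6.79 for Ogg1-/- and 7.12 for DKO (n = 3 each), and its departure was 0.07 on the log2 scale. Mutyh RNA was at 3.07, 2.85 and 2.60 CPM in the WT libraries, 10.2, 10.5 and 10.1 in Mutyh-/-, 3.56, 3.51 and 3.19 in Ogg1-/-, and 7.21, 8.75 and 10.1 in DKO. The libraries labelled as lacking Mutyh thus stood above all others, and since the count tables do not show which exons the reads covered, neither gene's count checks the genotype labels. The departure of Mutyh was -0.51 (95% interval -0.86 to -0.17, adjusted p = 0.526 in edgeR's quasi-likelihood test, with p-values adjusted over all genes by Benjamini-Hochberg), with 8.67 CPM measured in DKO against 12.4 CPM for additive effects.

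A gene was called where its adjusted p was under 0.05 and its log2 departure above 0.5 or below -0.5. By this rule 9 genes (0.0282% of those tested) were higher in DKO than additive effects would give and 29 (0.0910%) were lower. Over all tested genes the median departure was 0.015, 16897 departures were above 0, and the median standard error was 0.20 on the log2 scale. At an unadjusted p under 0.05 stood 2550 genes (8.0%), of which 1192 were higher and 1358 lower. The last genes inside the rule were Slc25a37 (adjusted p = 0.0432) and Gm47601 (0.0438), and the first outside it was Gm12762 (0.0729). Only Ap2b1, a subunit of the AP-2 complex of clathrin-coated vesicles, passed the adjusted p without the fold, at 81.6 to 86.6 CPM in WT and 105 to 112 CPM in the other 9 libraries, for a departure of -0.40 (adjusted p = 0.0335).

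**Figure D1:**
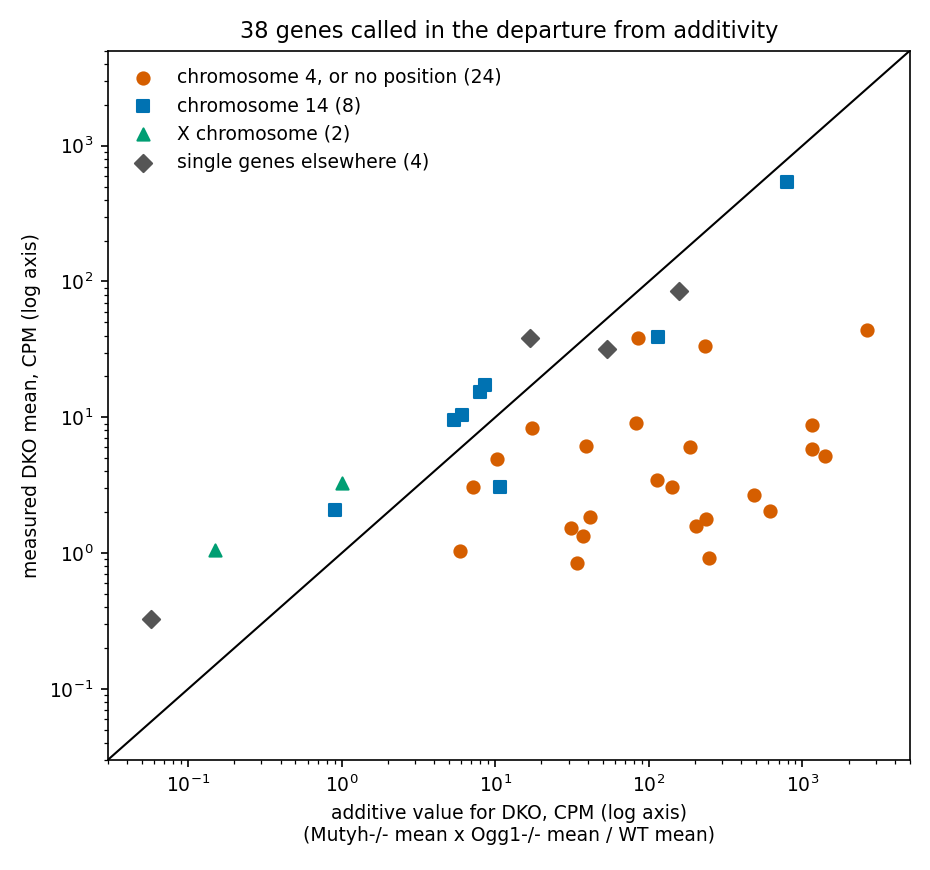
Each point is a gene called in the departure, with the DKO level that additive effects would give on the x axis and the measured mean DKO level on the y axis, both in CPM on log10 scales; the line marks equality. The 29 genes below the line fell short of the additive value, most of them members of the chromosome 4 stretch, and the 9 above it exceeded it.

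Set beside the knockouts' own effects, most called departures were changes seen in 1 or both single knockouts that the DKO did not carry, and the rest were changes that all 3 knockouts had alike. Against WT, 87 genes (0.273%) were called for Mutyh-/-, 73 (0.229%) for Ogg1-/- and 37 (0.116%) for DKO. Of 53 genes higher in Mutyh-/-, 23 had a departure called lower, as did 25 of 41 genes higher in Ogg1-/-. Of the genes lower in Mutyh-/- (34) and in Ogg1-/- (32), 6 each had a departure called higher. These comparisons share libraries with the departure, so the counts describe the called genes and are no separate test. Of the 29 genes with a departure called lower, 22 lay in the chromosome 4 stretch and are not independent measurements. The counts of genes called lower thus rest largely on that stretch.

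The genes changed in both single knockouts were nearly all among them. Of 21 genes called higher in both Mutyh-/- and Ogg1-/-, 20 had a departure called lower (median over the 21, -5.32), and 2 were called higher in DKO. Most of these 20 came from the chromosome 4 stretch, so they do not stand for genes across the genome. Of 4 genes called lower in both, 3 had a departure called higher, and 3 of the 4 were called lower in DKO.

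When the 4 genotype means of each called gene were split in 2 by the closest fit, with either 1 genotype or both single knockouts set apart, both single knockouts stood apart in 14 genes, Ogg1-/- alone in 14, Mutyh-/- alone in 5 and WT alone in 5. Outside the chromosome 4 stretch these numbers were 1, 5, 5 and 5, and the genes of the stretch are not independent measurements. DKO stood apart in 0 of the 38. Against WT, 9 genes were called only in DKO, and 0 of the 9 were called in the departure. At the share over all tested genes (0.119%), most sets of 9 genes would hold 0 calls. Plac9a, Plac9b and Gm9780 had near-equal means (6.94, 6.84 and 7.19 CPM in WT, 11.9, 11.7 and 12.2 in DKO), so the 9 may not be separate measurements. Plac9a, which encodes a small secreted protein, is an example of the 9. It was at 6.03 to 7.68 CPM in WT, 8.32 to 8.86 in Mutyh-/-, 9.01 to 9.54 for Ogg1-/- and 10.9 to 13.4 for DKO. Each step lay above the last with no overlap, the DKO mean was 11.9 CPM against 11.3 CPM for additive effects, and the departure was 0.07 (95% interval -0.23 to 0.37). Gbp4, an interferon-induced GTPase, had the largest departure of the 9, with 2.12, 2.49 and 2.41 CPM in the DKO libraries against 1.07 to 1.78 CPM in the other 9, and did not pass (0.58, adjusted p = 0.580). It was the 1 gene of the 9 with an unadjusted p under 0.05, and DESeq2 also called 0 of the 9.

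The genes near each deleted gene, where a knockout line can carry flanking sequence of another strain, held no called departure with all 12 libraries. Within 10 Mb of Ogg1 on chromosome 6, 9 of 235 tested genes were called in Ogg1-/- and 8 in DKO, and 0 in the departure by edgeR's quasi-likelihood test (median -0.01), with 22 at an unadjusted p under 0.05. DESeq2's Wald test called 1 of them, Grm7, and without DKO replicate 3 the quasi-likelihood test called Grm7 and Ttll3. Within 10 Mb of Mutyh on chromosome 4, 8 of 361 were called in Mutyh-/- and 6 in DKO, and 0 in the departure by either tool (median 0.02), with 23 at an unadjusted p under 0.05. Over all tested genes 0.119% were called in the departure and 8.0% had an unadjusted p under 0.05. At these shares 0 calls say little about either window.

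**Figure D2:**
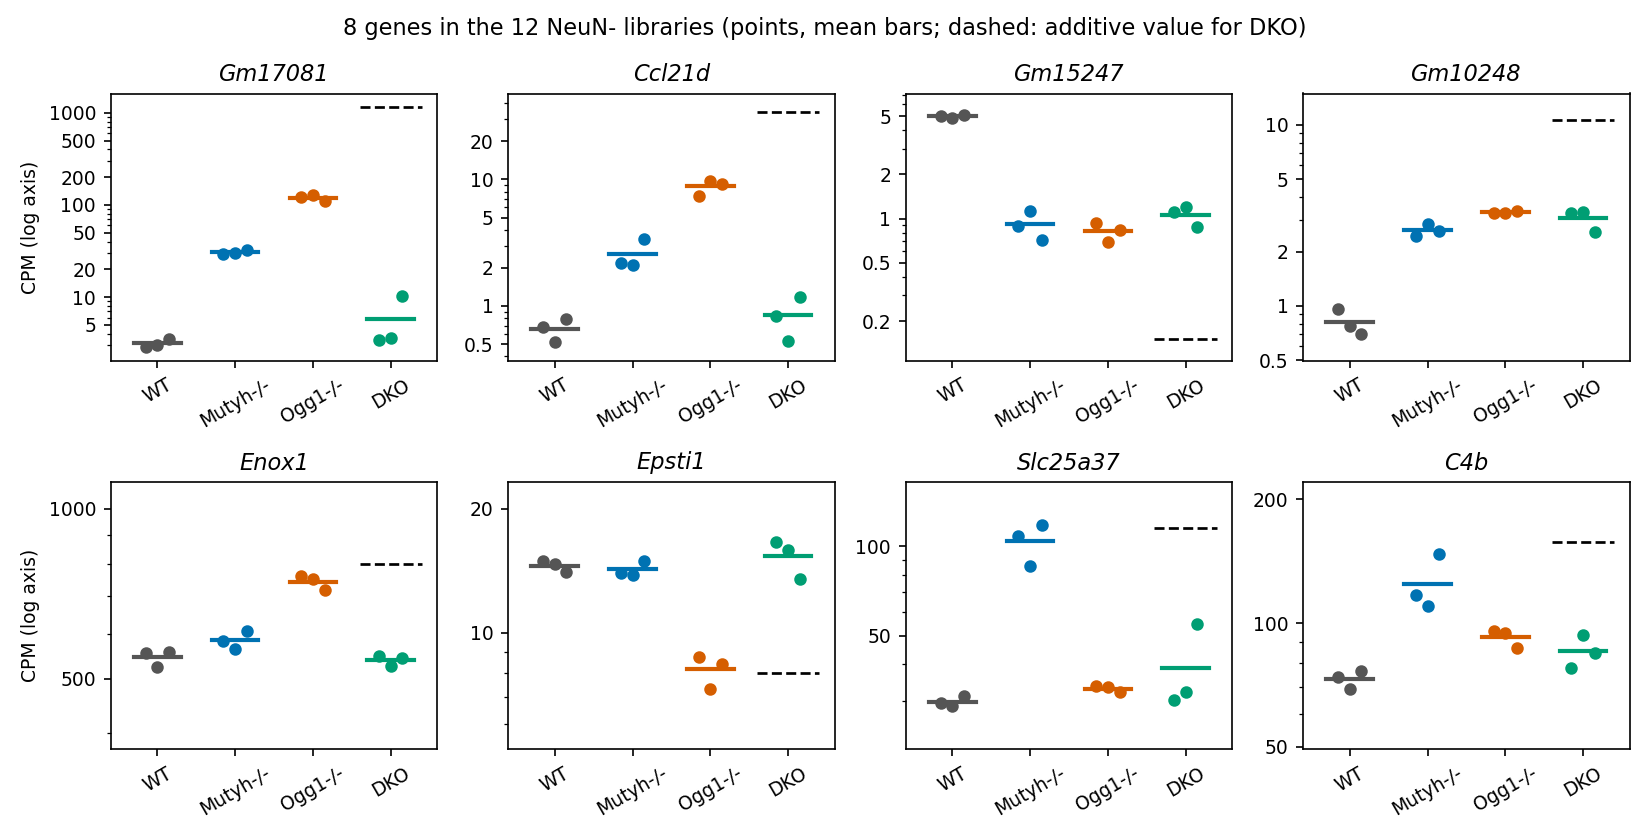
Levels in CPM of 8 called genes in the 12 NeuN- libraries, with a point for each library, a bar for each genotype mean and a dashed line for the DKO level that additive effects would give. In Gm17081 and Ccl21d the DKO points lie far under the dashed line, in Gm15247 and Gm10248 all 3 knockouts lie on the same side of WT, in Enox1 and Epsti1 Ogg1-/- lies apart from the other libraries, and in Slc25a37 and C4b the Mutyh-/- libraries are the highest.

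The called genes gathered at few places. Of the 36 called genes that had a position, 31 lay in 4 loci of at least 2 called genes, when called genes within 3 Mb of each other were joined (a distance chosen after the values were seen), and 5 stood alone. The largest locus was at chr4:41809083-42612860 (GRCm38), an 804-kb stretch that in this assembly holds repeated copies of Ccl21, Ccl19, Il11ra2, Ccl27 and Fam205a genes with many pseudogenes and unnamed transcripts. CCL21 is a chemokine that draws lymphocytes and dendritic cells through the receptor CCR7, and the forms encoded by Ccl21a and by the copies differ by a serine in place of a leucine.

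The Ccl21 copies are shown first because their sequences bear on what a read count for any of them can mean. Over coding bases 76 to 200 of 402, the copies Ccl21b, Ccl21d, Gm13304 and Gm10591 were identical in GENCODE transcripts, and Ccl21a, which lies just outside the stretch, differed from Ccl21b at A84T and T194C (counted from 1 at the A of the start codon, Ccl21b base first). Capitals mark these 2 bases, the only ones at which the coding sequences of the set differ.
Ccl21b: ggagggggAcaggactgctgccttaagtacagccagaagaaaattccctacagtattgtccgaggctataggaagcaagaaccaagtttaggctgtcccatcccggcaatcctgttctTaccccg
Ccl21a: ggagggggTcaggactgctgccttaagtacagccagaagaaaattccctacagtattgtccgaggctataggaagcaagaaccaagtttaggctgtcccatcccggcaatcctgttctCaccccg
Upstream of the annotated starts, Ccl21d, Gm13304, Gm10591 and Ccl21a had 2 differing bases (capitals) among 220 compared in RefSeq (GRCm38.p6). The 80 bases that hold both are given for Ccl21d (chr4:41903465-41903544, plus strand), Gm13304 (chr4:42114639-42114718, plus strand) and Ccl21a (chr4:42774059-42774138, minus strand), and Gm10591 (chr4:42611975-42612054, plus strand) had the letters of Gm13304.
Ccl21d: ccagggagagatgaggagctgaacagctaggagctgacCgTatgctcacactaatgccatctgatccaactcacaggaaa
Gm13304: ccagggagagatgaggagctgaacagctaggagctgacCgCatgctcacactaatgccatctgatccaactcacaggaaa
Ccl21a: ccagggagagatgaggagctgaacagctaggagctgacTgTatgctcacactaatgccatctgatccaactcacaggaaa

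Reads from copies this alike can be assigned to any of them, and how the authors' counting treated reads with several matches is not given in the sources used here. Of the 22 called genes in the stretch, 21 had transcripts in GENCODE, and these shared 38.2% to 100% of their 100-base windows with another gene (median 84.6%). All windows were shared in 7 of the 21, and at least 50% in 20. The single genes of the stretch are therefore uncertain, and the 22 called genes are not 22 independent measurements.

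In the called genes of the stretch Ogg1-/- was highest, followed by Mutyh-/-. All 22 were lower in DKO than additive effects would give, by -8.28 to -1.06 on the log2 scale (median -4.86), against a median of 0.015 over all tested genes. In all 22 the 3 Ogg1-/- libraries were above the other 9, the mean of Mutyh-/- was above that of WT, and the mean of DKO was below that of Mutyh-/-. The 3 Mutyh-/- libraries were all above the 3 WT libraries in 19 of the 22, and the DKO and WT libraries overlapped in 20. The ratio of the Ogg1-/- to the Mutyh-/- mean was between 1.59 and 4.10 (median 3.21), and the DKO level was 2.1 to 304 times under the additive value on the log2 scale (median 29.3). The largest of these was in Gm10600, with a WT mean of only 0.653 CPM. Its DKO mean was 2.04 CPM, against 620 CPM for additive effects on the log2 scale and 50.0 CPM on the linear scale.

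As a summary by library, the median over the 22 genes of the ratio to the WT mean was 0.93, 0.97 and 1.13 in the WT libraries, 3.02, 3.01 and 3.83 in Mutyh-/-, 10.1, 11.6 and 10.8 in Ogg1-/-, and 1.13, 0.95 and 1.66 in DKO. DKO replicate 3 was the highest DKO library in 18 of the 22 genes. It lay a median of 27.0% of the way from the other DKO libraries to the Mutyh-/- mean, and without it the calls of all 22 were kept. This share ran from -230% to 72.1% and was above 0 in 19 of the 22.

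Gm17081, an unprocessed pseudogene at chr4:42239725-42240202, shows the pattern in full. It was at 2.85, 3.05 and 3.55 CPM in WT, 29.4, 30.1 and 32.1 in Mutyh-/-, 120, 127 and 110 in Ogg1-/-, and 3.46, 3.62 and 10.3 in DKO. DKO replicates 1 and 2 sat at about the WT level and replicate 3 between WT and Mutyh-/-. Its departure was -7.66 (95% interval -8.65 to -6.66, adjusted p = 4e-06 in the quasi-likelihood test), with a mean of 5.8 CPM in DKO against 1156 CPM for additive effects on the log2 scale and 147 CPM on the linear scale.

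Gm17167, a processed transcript at chr4:42206998-42235313, had the same order at a higher count. It was at 28.5, 29.7 and 31.7 CPM in WT, 152, 160 and 139 in Mutyh-/-, 539, 585 and 456 in Ogg1-/-, and 34.2, 32.7 and 65.9 in DKO. DKO replicates 1 and 2 lay just over WT and replicate 3 higher, all under both single knockouts, and the departure was -5.90 (95% interval -6.59 to -5.22, adjusted p = 1.76e-06).

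Ccl21d, a protein-coding copy at chr4:41903613-41904743, was lower in count with the same order. It was at 0.677, 0.516 and 0.785 CPM in WT, 2.19, 2.12 and 3.37 in Mutyh-/-, 7.39, 9.74 and 9.25 in Ogg1-/-, and 0.828, 0.531 and 1.17 in DKO. WT and DKO overlapped, and the departure was -5.32 (95% interval -6.12 to -4.52, adjusted p = 1.53e-05). Ccl21b, whose coding sequence is the same, had a departure of -4.78 (adjusted p = 2.25e-05).

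The smallest departures of the 22 were in genes whose Mutyh-/- level was near WT. Fam205a3, a member of a copied gene family, was at 7.28 to 8.84 CPM in WT, 7.27 to 9.18 in Mutyh-/-, 14.7 to 18.2 for Ogg1-/- and 7.14 to 9.37 for DKO, so only Ogg1-/- stood out. Its departure was -1.06 (adjusted p = 0.0432). Of the 11 tested genes of the stretch that were not called, 10 had a negative departure and 9 had an unadjusted p under 0.05, among them Gm10593 (-0.79, adjusted p = 0.121).

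Genes beside the stretch were not called, though some had 95% intervals wholly under 0. Among these were Gm2564 (-0.94, interval -1.69 to -0.19), Cntfr (-0.58, -0.91 to -0.24) and Il11ra2 (-0.72, -1.36 to -0.08), which shared 100% of its windows. Ccl21a, 160 kb beyond the stretch, was at 2.34, 1.81 and 2.86 CPM in WT, 2.00, 2.26 and 2.76 in Mutyh-/-, 2.63, 3.56 and 3.10 in Ogg1-/-, and 3.09, 1.86 and 1.91 in DKO. The 4 genotypes overlapped, and the departure was -0.42 (95% interval -1.10 to 0.26, adjusted p = 0.749). Ccl21a shared 50.3% of its windows with another gene. The departures of Ccl19, the other ligand of CCR7, and of Il11ra1, the interleukin 11 receptor, were 0.02 and -0.13, and neither passed. Without a position in the annotations used, the called transcripts Gm50470 (-7.54) and BX666061.1 (-5.53) had the same order of genotypes, with Gm50470 at a mean of 1.48 CPM in WT, 13.7 in Mutyh-/-, 52.1 for Ogg1-/- and 2.66 for DKO.

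**Figure D3:**
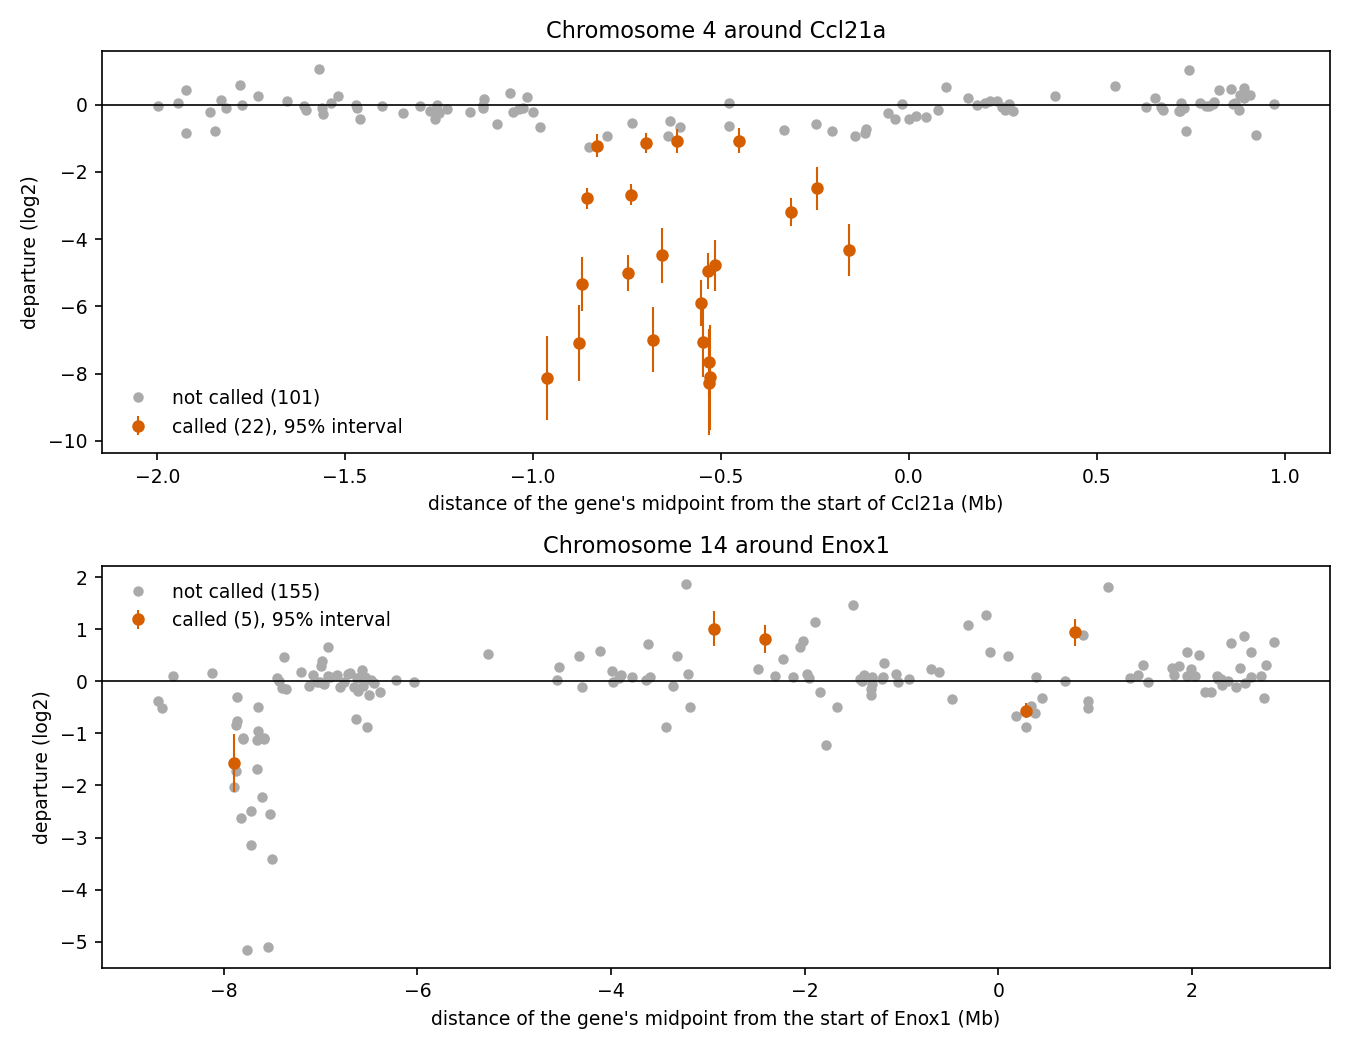
Departure from additivity (log2, y axes) of each tested gene against the distance of its midpoint in Mb from the start of Ccl21a on chromosome 4 and of Enox1 on chromosome 14 (x axes), with called genes in orange with 95% intervals and the others in grey. On chromosome 4 the 22 called genes form 1 block with values down to -8.28 while most of the 101 other genes lie about 0, and on chromosome 14 the 5 called genes lie among others that were not called.

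At 2 loci all knockouts had moved alike, so that the DKO carried a change of the size of each single knockout and not of their sum. At the Mid1 locus on chromosome X (chrX:169975043-169986939), where the gene of a microtubule-associated ubiquitin ligase spans the edge of the pseudoautosomal region, the antisense gene Gm15247 was at 5.01, 4.87 and 5.09 CPM in WT. It was at 0.892, 1.12 and 0.718 in Mutyh-/-, 0.933, 0.690 and 0.840 in Ogg1-/-, and 1.10, 1.20 and 0.875 in DKO. The 3 knockouts overlapped with each other and lay well under WT, and the departure was 2.82 (95% interval 2.28 to 3.35, adjusted p = 0.000119).

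G530011O06Rik, on the same strand nearby, had the same order. Its mean was 11.1 CPM ± 0.93 (SD, n = 3) in WT, 3.43 ± 0.41 in Mutyh-/-, 3.24 ± 0.14 for Ogg1-/- and 3.30 ± 0.59 for DKO, and the departure was 1.72 (adjusted p = 0.00088). Other genes, Mid1 among them, held 42.3% of its windows. Mid1 itself was at 82.3 to 92.7 CPM in WT, 37.6 to 47.6 in Mutyh-/-, 56.1 to 61.6 for Ogg1-/- and 44.3 to 72.5 for DKO, and its departure did not pass (0.90, adjusted p = 0.297), nor did that of Gm15726 in the same region (3.57, adjusted p = 0.129). DESeq2, the likelihood ratio test and the fit of 24 libraries called both. Gm15726 was also called by limma voom and without DKO replicate 3.

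The other locus was on chromosome 14 (chr14:22507174-23094571). Gm10248, an antisense transcript, was at 0.961, 0.774 and 0.697 CPM in WT, 2.43, 2.84 and 2.60 in Mutyh-/-, 3.25, 3.28 and 3.34 in Ogg1-/-, and 3.28, 3.30 and 2.56 in DKO. All knockout libraries were above all WT libraries, and the departure was -1.80 (95% interval -2.22 to -1.37, adjusted p = 0.00107). Beside it, 4930405A10Rik (0.77, adjusted p = 0.0157) and Gm47601 (1.20, adjusted p = 0.0438) were lower in every knockout library than in every WT library.

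A second region of chromosome 14 (chr14:73979158-78002657) held 4 called genes of 44 tested, with Ogg1-/- furthest from the other genotypes. Enox1, a cell-surface oxidoreductase gene, was at 554, 524 and 557 CPM in WT, 583, 565 and 607 in Mutyh-/-, 761, 751 and 718 in Ogg1-/-, and 548, 526 and 544 in DKO. The DKO libraries lay within the WT range and under every Ogg1-/- library, and the Mutyh-/- libraries lay between the WT and the Ogg1-/- libraries. The departure was -0.56 (95% interval -0.71 to -0.42, adjusted p = 0.00292), with 539 CPM in DKO against 798 CPM for additive effects.

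Epsti1, an interferon-induced gene near Enox1, had the opposite sign. It was at 14.9, 14.7 and 14 CPM in WT, 14, 13.8 and 15 in Mutyh-/-, 8.72, 7.30 and 8.42 in Ogg1-/-, and 16.6, 15.9 and 13.5 in DKO. The low level in Ogg1-/- was not seen in DKO, and the departure was 0.94 (95% interval 0.68 to 1.21, adjusted p = 0.0049).

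Esd, which encodes the esterase that hydrolyses S-formylglutathione, was likewise lowest in Ogg1-/-, at a mean of 5.42 CPM ± 0.23 (SD, n = 3) against 10.5 ± 0.41 in WT, 10.5 ± 0.34 in Mutyh-/- and 9.51 ± 1.2 in DKO. Its departure was 0.81 (adjusted p = 0.0232). The long noncoding RNA Gm49171 had a departure of 1.01 (adjusted p = 0.0215). The median over the 44 tested genes of the region was 0.09, with uncalled genes well away from 0 on both sides. Among these were Lacc1 (1.28, 95% interval 0.77 to 1.79) and Gm49200 (-1.23, 95% interval -2.02 to -0.43).

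In 5 called genes the split of the means set Mutyh-/- apart. The first, Slc25a37 on chromosome 14 (chr14:69241848-69285112), the iron importer of the inner mitochondrial membrane, was at 29.7, 28.9 and 31.2 CPM in WT, 108, 86.0 and 118 in Mutyh-/-, 33.7, 33.4 and 32.3 in Ogg1-/-, and 30.3, 32.2 and 54.5 in DKO. DKO replicates 1 and 2 lay among the WT and Ogg1-/- libraries and replicate 3 above them, and the departure was -1.56 (95% interval -2.12 to -1.0, adjusted p = 0.0432).

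C4b, the complement component that is cleaved early in the classical pathway, was at 73.9, 68.9 and 76.4 CPM in WT, 117, 110 and 147 in Mutyh-/-, 95.8, 94.3 and 87.0 in Ogg1-/-, and 77.6, 93.7 and 84.5 in DKO. DKO overlapped with Ogg1-/-, both lay above every WT library and under every Mutyh-/- library, and the departure was -0.89 (adjusted p = 0.0392). C4a, with which C4b shared 15.2% of its windows, had a departure of -0.76 and was not called (adjusted p = 0.199).

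Lama3, a laminin chain of basement membranes, was at a mean of 38.1 CPM ± 2.5 (SD, n = 3) in WT, 20.4 ± 0.88 in Mutyh-/-, 31.4 ± 5.6 for Ogg1-/- and 38.7 ± 7.4 for DKO, with a departure of 1.20 (adjusted p = 0.0388). Sspo, the secreted SCO-spondin, was at 29.2 ± 2.3, 47.6 ± 3.5, 32.8 ± 3.2 and 31.7 ± 2.2 CPM in the same order, with a departure of -0.76 (adjusted p = 0.0388). Gm29880 was called at a mean of 0.068 to 0.329 CPM (2.51, adjusted p = 0.0424). Next in the higher direction, Dach2 was not called (0.41, adjusted p = 0.0739).

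When each of the 12 libraries was left out in turn, 27 of the 38 calls were kept each time, 20 of them in the chromosome 4 stretch and the others Gm50470, BX666061.1, Enox1, Epsti1, Gm10248, Gm15247 and G530011O06Rik. The calls of the other 11 depended on single libraries. Without WT replicates 1, 2 or 3, Esd, Slc25a37, Gm47601, Gm29880, C4b, Lama3, Gm13306 and Sspo were lost. Fam205a3 was lost without WT replicates 1 or 2, and 4930405A10Rik without WT replicates 2 or 3. Gm49171 was lost without any of the 3 Mutyh-/- libraries and without Ogg1-/- replicate 2. Each of the other Ogg1-/- and DKO libraries also ended the call of at least 1 of the 11, with DKO replicate 3 ending that of Gm29880, while all 38 kept their direction.

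Leaving out DKO replicate 3 moved the number of called departures more than leaving out any other library. Without DKO replicate 3, 68 genes were called (19 higher, 49 lower), 37 of the 38 were kept and 31 were added. Of the 31, 12 lay beside Slc25a37 in a 454-kb stretch (chr14:69241848-69695834), all lower, with departures of -7.10 to -1.02. Loxl2, a lysyl oxidase of the extracellular matrix, was among them, at 3.69, 4.54 and 3.96 CPM in WT, 211, 145 and 238 in Mutyh-/-, 3.85, 5.95 and 7.17 in Ogg1-/-, and 4.42, 5.31 and 68.4 in DKO. With all 12 libraries its departure was -3.41 (adjusted p = 0.552), and without DKO replicate 3 it was -5.84 (adjusted p = 1.74e-06). Loxl2 is also in a list of genes known to differ between C57BL/6 substrains. Of its 13 tested genes 0 were called with all 12 libraries, and 4 had an unadjusted p under 0.05. The list summed to 1248 to 1302 CPM in WT, 1470 to 1594 in Mutyh-/-, 1207 to 1242 for Ogg1-/- and 1238 to 1342 for DKO. Whether the groups differ in substrain was not tested.

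Some genes of the stretch beside Slc25a37 had near-equal levels. Gm38378 was at 3.97, 2.47 and 6.22 CPM in Mutyh-/- and Gm37513 at 4.00, 2.47 and 6.26. Slc25a37 shared 6.11% of its windows with Gm16867, Gm31748 and Gm37847, and the share was not counted for the added genes. The 13 called genes of the stretch, Slc25a37 included, are thus not 13 independent measurements. Over them, DKO replicate 3 lay 21.7% to 62.8% of the way from the other DKO libraries to the Mutyh-/- mean (median 32.3%). The other 19 added genes (11 higher, 8 lower) were elsewhere, among them Lacc1, a macrophage oxidoreductase gene in the Enox1 region (1.43), and Grm7, a presynaptic glutamate receptor within 10 Mb of Ogg1 (0.59, adjusted p = 0.0423). Ttll3, a tubulin ligase gene nearer to Ogg1, was also among them (-0.56, adjusted p = 0.0388, against -0.48 and adjusted p = 0.18 with all 12 libraries). With all 12 libraries Grm7 stood at 0.51 (adjusted p = 0.295), with 452 to 485 CPM in WT, 351 to 424 in Mutyh-/-, 249 to 260 for Ogg1-/- and 273 to 337 for DKO.

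Of the gene lists other than those of the chromosome 4 copies and of Mid1, only the interferon list held a called gene, Epsti1. DESeq2 called 1 further gene in these lists, Grm7. At the share over all tested genes (0.119%), most lists of their size would hold 0 called genes. Among the DNA glycosylases, Mutyh and Ung (0.88, adjusted p = 0.594, below 0.5 CPM in every library) had an unadjusted p under 0.05, and the 11 members had a median of 0.04. Of the 17 genes that act in base excision repair after the glycosylase, 12 had a negative departure (median -0.04, against 0.015 over all genes) and 0 were called. The end-processing enzyme Tdp1 (-0.20, adjusted p = 0.609) and the scaffold Xrcc1 (-0.17, adjusted p = 0.593) were among those with an unadjusted p under 0.05. Xrcc1 was at 19.1 to 19.9 CPM in WT, 20.1 to 22.1 in Mutyh-/-, 20.1 to 20.2 for Ogg1-/- and 19.0 to 20.1 for DKO. The 7 Nudix hydrolases that clear oxidized nucleotides had a median of -0.05 and the 29 antioxidant genes a median of 0.01, with 0 at an unadjusted p under 0.05 in either list.

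The Polycomb and DNA methylation lists, which hold the genes of this machinery itself, had medians near that of all genes. The study's claims concern target genes of Polycomb repressive complex 2, and no list of such targets was examined here. The 12 tested subunits of Polycomb repressive complex 2 had a median of 0.00, with Suz12 at -0.05, Eed at -0.11, Ezh2 at -0.03 and Ezh1 at -0.01. Jarid2 alone had an unadjusted p under 0.05 (0.16, adjusted p = 0.610). The 12 writers, erasers and readers of DNA methylation had a median of 0.00. Of 18 histone deacetylases 16 were negative (median -0.08, where 47.0% of all tested genes were negative) and 0 were called, Sirt4 among them (-0.38, adjusted p = 0.526). Other genes the study names had departures of 0.02 (Wnt6), 0.50 (Npr3), -0.09 (Oaf), -0.24 (Hdac4), 0.11 (Sema4c) and 0.35 (Glis1), and 0 of them were called.

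**Figure D4:**
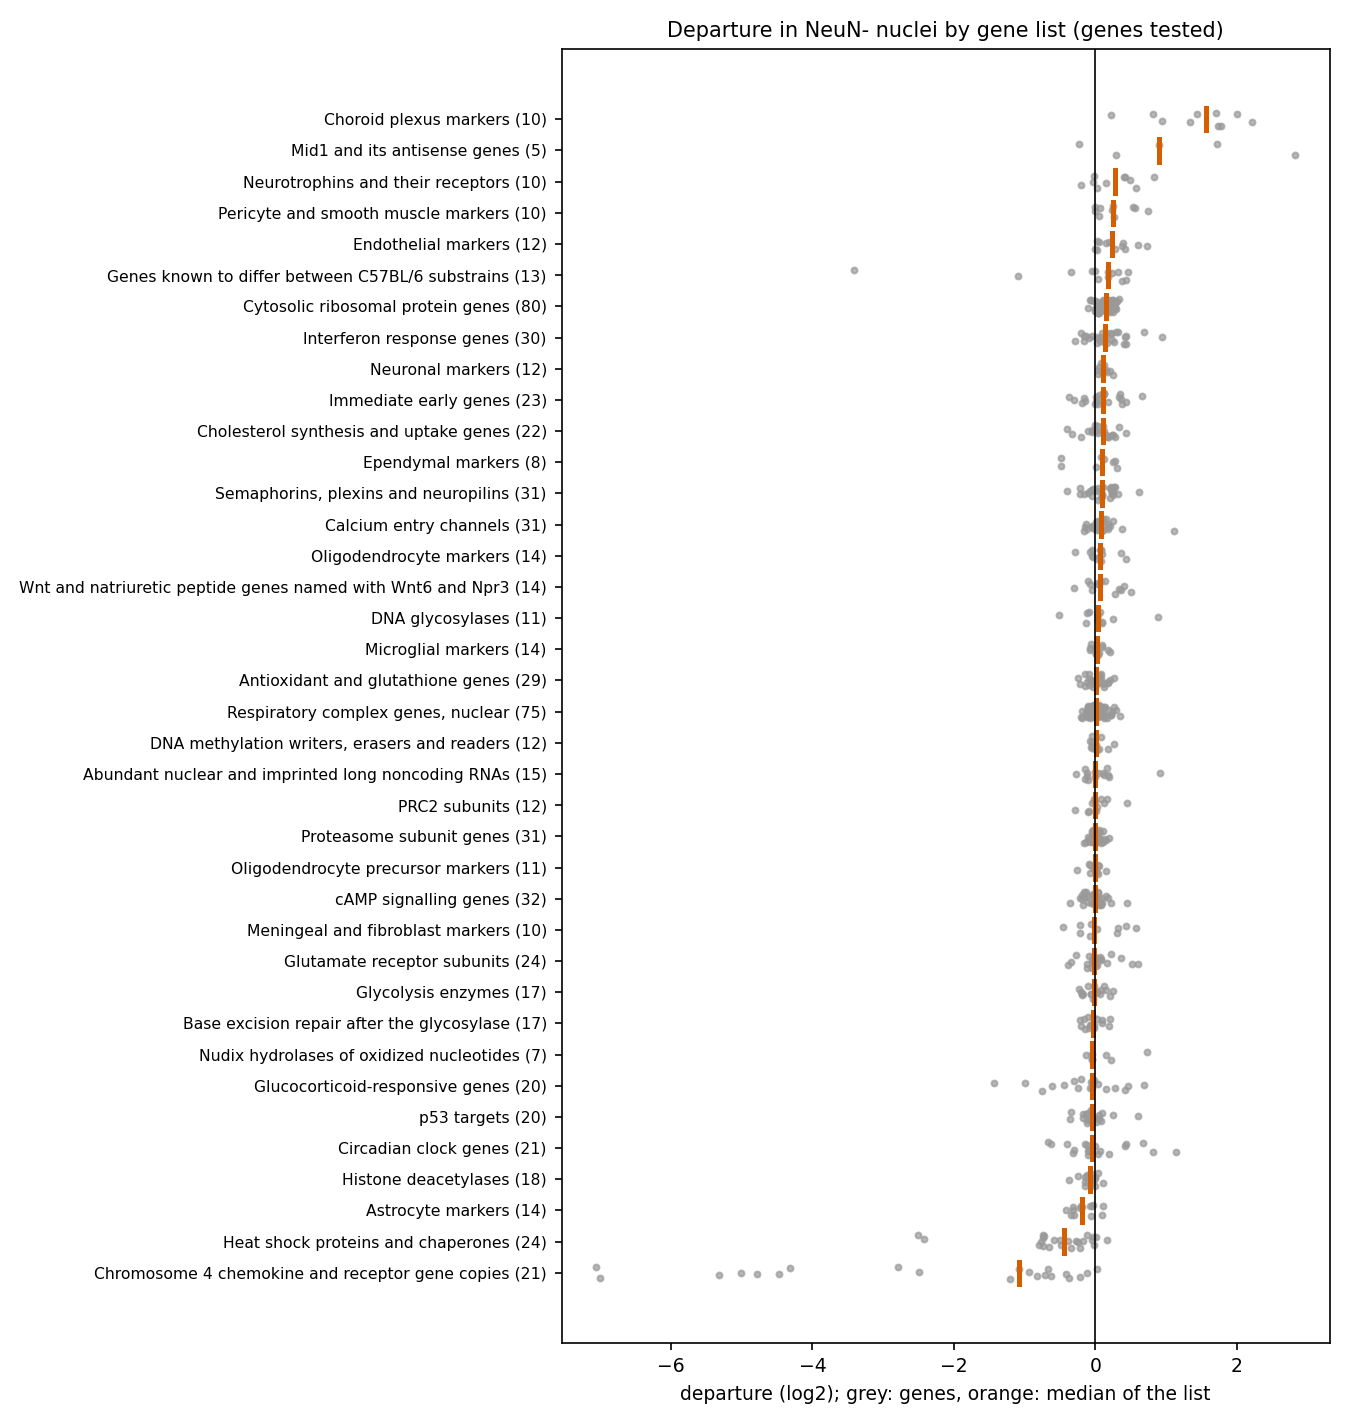
Departure from additivity in NeuN- nuclei (log2, x axis) for each gene list (y axis, with the number of genes tested), with a grey point for each gene, an orange bar at the list median and a line at 0. Most medians lie near 0, while heat shock genes (-0.44) and the chromosome 4 copies (-1.07) lie below and Mid1 with its antisense genes (0.90) and choroid plexus markers (1.57, or 0.13 without DKO replicate 3) above.

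Heat shock proteins and chaperones had the lowest median of the lists outside the copied genes, -0.44, with 22 of 24 members negative and 0 called. Hsp90aa1, the inducible cytosolic HSP90, was at 168, 165 and 212 CPM in WT, 302, 308 and 215 in Mutyh-/-, 221, 185 and 135 in Ogg1-/-, and 119, 167 and 182 in DKO. Mutyh-/- replicates 1 and 2 were high and the other 10 libraries overlapped. The departure was -0.80 (adjusted p = 0.561).

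Hspa1a, the stress-induced HSP70, ranged from 11.7 to 56.7 CPM in Mutyh-/- and from 1.91 to 25.2 in DKO, and its departure did not pass (-2.42, adjusted p = 0.640). The summed level of the 24 genes was 1097 to 1385 CPM in WT, 2056, 2151 and 1332 in Mutyh-/-, 963 to 1439 for Ogg1-/- and 934 to 1442 for DKO. The list median stayed between -0.63 and -0.30 when each library was left out in turn.

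Among the cell type lists, the 14 astrocyte markers had a median of -0.20, with 12 of 14 negative. Aldh1l1, the astrocytic folate enzyme, was at 82.3 to 105 CPM in WT, 96.5 to 105 in Mutyh-/-, 130 to 144 for Ogg1-/- and 94.2 to 117 for DKO, and did not pass (-0.41, adjusted p = 0.552). The oligodendrocyte (0.06), precursor (-0.01) and microglial (0.02) lists lay near the median of all genes, with 0 members at an unadjusted p under 0.05. Endothelial (0.24) and pericyte (0.24) markers lay above it, and without DKO replicate 3 both medians were -0.02 and -0.01. The 10 choroid plexus markers were all positive (median 1.57), and Ttr, the thyroxine carrier of the choroid plexus, was at 4.13, 50.9 and 165 CPM in the DKO libraries, a wide spread within the genotype (departure 1.77, adjusted p = 0.757). How much of any called gene's value came with these cells was not tested.

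The 80 cytosolic ribosomal protein genes had a median of 0.15, with 72 positive, 8 at an unadjusted p under 0.05 and 0 called. Rpl3 was at 40.4 to 43.2 CPM in WT, 32.9 to 37.1 in Mutyh-/-, 31.7 to 35.3 for Ogg1-/- and 32.6 to 35.8 for DKO, which is the pattern in which all knockouts lie alike under WT (0.29, adjusted p = 0.526). The 30 interferon response genes had a median of 0.13, with 23 positive and Epsti1 called. Clock genes went both ways (median -0.05), with the repressor Cry1 at -0.68 (adjusted p = 0.551) and Nr1d1, which encodes REV-ERBα, at 0.67 (adjusted p = 0.559), neither called. Glutamate receptor subunits (-0.02), p53 targets (-0.05), immediate early genes (0.11) and cholesterol genes (0.10) held 0 called genes. Genes encoded in mitochondrial DNA were absent from the count table.

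The NeuN+ libraries, which took no part in these calls, gave the same comparison in neuronal nuclei of the same study. In a fit of all 24 libraries, 47 of 33523 genes (0.140%) were called for a departure in NeuN+. Of the 38 genes called in NeuN-, 35 had a departure of the same sign in NeuN+ and 28 were called there. All 22 genes of the chromosome 4 stretch were among the 28, with NeuN+ departures of -7.92 to -0.93 (median -3.79, against -4.87 in NeuN- in the same fit), as were Gm50470 and BX666061.1. Of the 14 other called genes with a position, 4 were called in NeuN+: Slc25a37 (-1.60), Esd (0.91), G530011O06Rik (2.95) and Gm15247 (4.87). The study's methods describe both kinds of nuclei as taken from the same sort and do not say which libraries share a pool of animals. A sequencing lane that differed between NeuN- and NeuN+ libraries could not be told apart from the kind of nuclei.

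**Figure D5:**
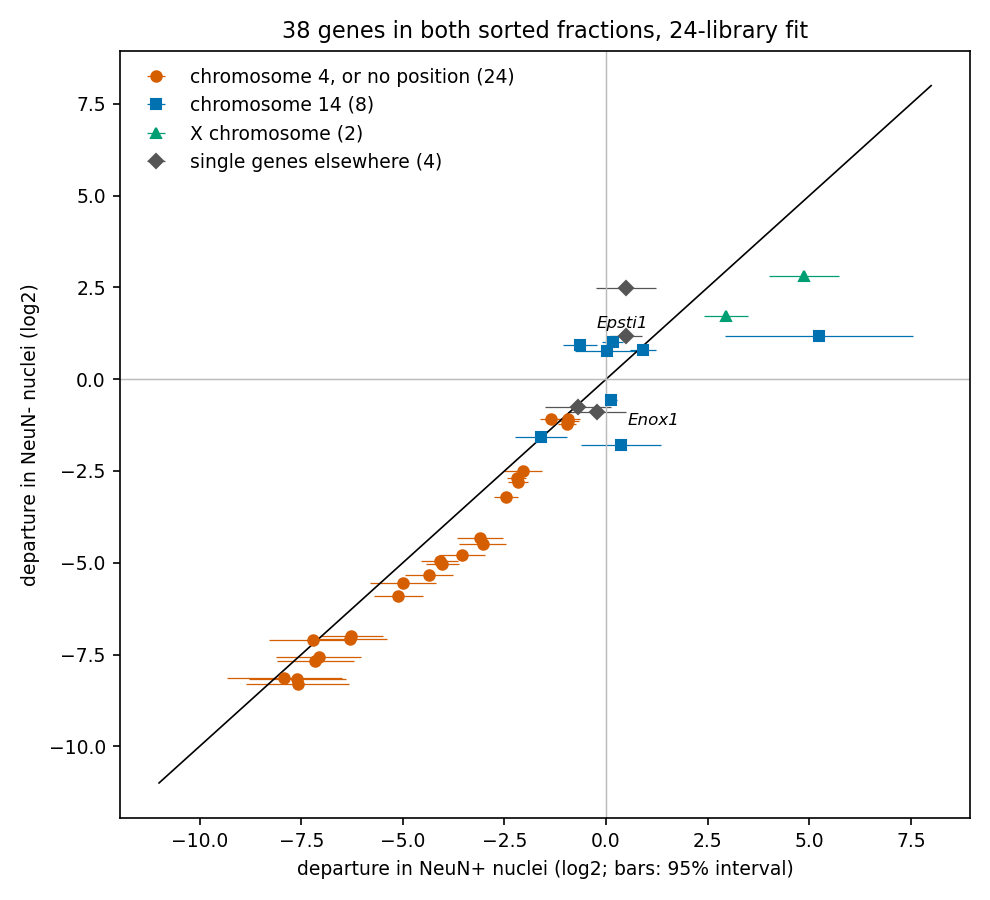
Departure in NeuN- nuclei (log2, y axis) against departure in NeuN+ nuclei (log2, x axis, with 95% intervals) for the 38 genes called in NeuN-, by place in the genome, from the fit of 24 libraries, with the line of equality. The 24 genes on chromosome 4 or without a position follow the line, most of them with the lower value in NeuN-, while several others lie off it, among them Enox1 and Epsti1 (NeuN+ departures of 0.12 and -0.64), which passed the test of the difference, and Gm47601 and Gm10248, which did not.

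Tested as a difference between the 2 kinds of nuclei, the departure differed in 3 of the 33523 genes (0.00895%), and 1662 had an unadjusted p under 0.05. Of the 38 called genes, Enox1 and Epsti1 were among the 3. Leaving out 1 of the 24 libraries at a time ended the call of Epsti1 in 13 fits and that of Enox1 in 6. When NeuN- and NeuN+ libraries were paired by genotype and replicate number, Enox1 stayed called and Epsti1 did not. Larger NeuN- minus NeuN+ differences in Gm47601 (-4.05, adjusted p = 0.894), Gm10248 (-2.17, adjusted p = 0.688) and Gm15247 (-2.06, adjusted p = 0.606) did not pass. Enox1 was at 990 to 1117 CPM in the WT libraries of NeuN+, 981 to 1052 in Mutyh-/-, 997 to 1053 for Ogg1-/- and 1028 to 1131 for DKO, all overlapping, for a departure of 0.12 (95% interval -0.04 to 0.27). Epsti1, at 0.658 to 1.46 CPM in NeuN+, was highest there in Ogg1-/- (1.43, 1.46 and 1.19 CPM), the genotype in which it was lowest in NeuN-, and its NeuN+ departure was -0.64 (95% interval -1.06 to -0.22). In the chromosome 4 stretch 0 of the 22 genes were called for this difference in edgeR's quasi-likelihood test (lowest adjusted p = 0.80), and 9 had an unadjusted p under 0.05.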

How the data were processed

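The deposited tables hold raw counts of read pairs per gene, 1 table for NeuN- and 1 for NeuN+ nuclei. The authors made them from paired reads of a stranded total RNA kit, and the submitters' processing notes name FastQC 0.11.9, HISAT2 2.1.0, SAMtools 1.10, featureCounts, R 4.3.2 and edgeR 3.42.4, with genome GRCm38. The strand setting and the handling of reads with several matches are not given in the sources used here.

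From the counts, genes with low counts were removed by edgeR's filterByExpr, library sizes were scaled by TMM, and edgeR 4.0.16 (R 4.3.3) fitted a quasi-likelihood model with a mean for each of the 4 genotypes to the 12 NeuN- libraries. The departure was tested as 1 contrast, with p-values adjusted by Benjamini-Hochberg over all tested genes. CPM are counts per 1000000 of the TMM-scaled library size. A fit of all 24 libraries gave the NeuN+ departure and the difference between nuclei. DESeq2 1.42.0 and limma 3.58.1 served as alternatives. Samples were grouped by genotype and NeuN state per the labels. Gene positions were those of GENCODE vM21 (GRCm38), or RefSeq GRCm38.p6 where a symbol was missing there. The share of copied sequence was counted over 100-base windows of GENCODE transcripts.

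The text names Ogg1 and Mutyh, up to 15 called genes in each direction with the smallest p, up to 10 where fewer than 10 were called, the 4 members of each gene list with the smallest p, genes the study names and genes called in the difference. Other genes were named after their values were seen. The comparison, the gene lists and the loci were chosen with earlier results of these data known. The fit was tested on simulated data before use. Libraries of different genotypes with the same replicate number did not deviate together. The depth and the 3 libraries per genotype gave a median standard error of 0.20 for a departure.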

Additional observations from a re-analysis of the deposited data

Results flagged for a closer look

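The departure from additivity differed between NeuN- and NeuN+ nuclei in 3 genes by the test of the difference itself in the fit of 24 libraries (edgeR's quasi-likelihood test, Benjamini-Hochberg adjustment). For Enox1 the NeuN- minus NeuN+ difference was -0.69 (95% interval -0.91 to -0.48, adjusted p = 0.0213), with a departure of -0.57 in NeuN- and 0.12 in NeuN+. For Epsti1 it was 1.57 (95% interval 1.07 to 2.08, adjusted p = 0.0219), with 0.93 in NeuN- and -0.64 in NeuN+. For Arhgap33os, an antisense transcript on chromosome 7, it was 3.68 (95% interval 2.63 to 4.73, adjusted p = 0.0108), with 0.69 in NeuN- and -2.99 in NeuN+. Arhgap33os was at 0.656, 0.892 and 1.08 CPM in the Ogg1-/- libraries of NeuN+ and at 0.116 to 0.181 CPM in the other 9, while in NeuN- it was at 0.386 to 0.415 CPM in WT and 0.189 to 0.278 CPM in the other 9. Of 24 fits that each left out a library, the call of Epsti1 was lost in 13 and that of Arhgap33os in 0. The fit of 24 libraries did not pair NeuN- with NeuN+ libraries. With each NeuN- library paired to the NeuN+ library of its genotype and replicate number, only Enox1 of the 3 stayed called. With at least 10 counts required in all 24 libraries, Enox1 and Epsti1 were called and Arhgap33os was not. Among the 24 fits that each left out a library, the call of Enox1 was lost in 6. These were without WT replicate 2, Mutyh-/- replicate 1 or DKO replicate 2 of NeuN-, and without Mutyh-/- replicate 1, Ogg1-/- replicate 1 or DKO replicate 2 of NeuN+.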

How the results depend on the processing

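All 38 genes called for the departure kept their direction under every alternative in which they were tested, and 25 of them stayed called in each one. The count of 38 (9 higher, 29 lower) depended on the test: the likelihood ratio test called 88 (34 higher, 54 lower) and DESeq2's Wald test 84 (34 higher, 50 lower), and the cause was not tested. It was 38 with DESeq2 size factors and with upper quartile factors, which moved the median of all genes by under 0.1, 45 with every gene that had a count, 39 by limma voom, 44 on the linear scale and 51 in the fit of 24 libraries (18 higher). A pair of alternatives was chosen after seeing the data. Without genes that shared 20% or more of their windows or had no transcript, 13 remained (5 lower), and DESeq2 without DKO replicate 3, on 11 libraries, called 230 (93 higher, 137 lower). Leaving out each library in turn gave 27 to 68 calls (3 to 19 higher, 24 to 49 lower), with 27 without Mutyh-/- replicate 1 and 68 without DKO replicate 3. The same fits gave 31 to 435 for Mutyh-/- against WT (435 without Mutyh-/- replicate 3, 31 without WT replicate 1), 50 to 116 for Ogg1-/- (116 without DKO replicate 3), 19 to 55 for DKO and 1 to 7 for the difference between nuclei. DESeq2 called 231 for Mutyh-/-, 179 for Ogg1-/-, 178 for DKO and 7 for the difference, and with every gene that had a count 73 were called for DKO. Replicate numbers did not pair the libraries of different genotypes (mean correlation of deviations 0.05 over 18 same-numbered pairs, -0.27 to 0.30). Blocking on the replicate number across genotypes gave the departure 33 calls (7 higher, 26 lower) and DKO against WT 63. The difference was blocked otherwise, on pairs of a NeuN- and a NeuN+ library of the same genotype and replicate number. That gave 8 calls, of which Enox1 was 1.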
